A study of Mus musculus with 8 samples.

Results

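The expression of 10 imprinted genes with roles in growth, H19, Dlk1, Peg3, Mest, Plagl1, Ndn, Grb10, Cdkn1c, Sgce and Zim1, was followed across mouse stromal cell lines. The genes were taken by their symbol from a set list, with no filter on their values, but the list was made with earlier results of these data known. They are 10 of the 18195 genes named on the array, measured by 27 of its 45101 probe sets. The series was made to ask how pre-B lymphocytes change gene expression in the stromal cells that support them. There were 4 groups with 2 arrays each. The first was OP9 with 230-238, in which OP9, a bone marrow stromal line labelled with the strain B6C3F1, was kept for a week together with that line of pre-B cells, and the second was OP9 cells without pre-B cells, which the methods describe as kept in conditioned medium. All OP9 cells carried a red fluorescent marker from a retrovirus, grew in OptiMEM with serum, and were sorted by that marker. The other groups were MC3T3, an osteoblast-like line, and NIH3T3, an embryonic fibroblast line, both labelled Balb/c and both grown in DMEM with serum, and neither was given pre-B cells. For MC3T3, the description of replicate 2 names sorted cells and that of replicate 1 a culture. Each line stands for 1 immortal population, so strain, culture medium and cell type cannot be told apart between OP9 and the other lines. Replicates are labelled as biological, with no word on separate cultures, so a p-value here covers only the spread between such arrays, and part of it may be technical.

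An imprinted gene is transcribed mainly from the copy inherited from the mother or mainly from the copy inherited from the father, and methylation of DNA laid down in the germ line marks which copy is used. Imprinted genes lie in clusters that share control regions, and many of them adjust growth of the embryo and placenta, with paternally expressed genes often promoting growth and maternally expressed genes often restraining it. Several are strongly expressed in mesenchymal cells of the embryo and fall silent after birth, and some act in the decision of such cells to become fat cells. Arrays of this kind measure RNA and cannot tell which parental copy it came from.

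Levels are linear intensities, normalized by the authors before deposit. The probe set with the highest mean stands for its gene, and a gene is called on in a group when both arrays reached 100, the level set for the description, and below that level otherwise, which does not mean that no RNA was present. The array medians ranged over 41.77 to 44.99, and the share of probe sets at 100 or above over 34.3 to 36.3%. Between the 2 arrays of a group the median absolute difference of a gene was 0.0686 in co-cultured OP9, 0.0694 in OP9, 0.0885 in MC3T3 and 0.143 in NIH3T3 cells on the log2 scale, so NIH3T3 values were the least precise. Markers of stroma and fibroblasts were on in all groups, 7 of 8 in each OP9 group and in NIH3T3 and 8 of 8 in MC3T3 cells. Of 8 osteoblast markers listed, 5 had a probe set that carried their symbol alone. Runx2, Bglap and Spp1 had none and were not read. Of these 5 only Dmp1 was on in MC3T3 cells, and Alpl and Sp7, which define osteoblasts, were below 100 on both MC3T3 arrays.

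On this scale 5 of the 10 genes were on in co-cultured OP9 cells and the same 5 in OP9 cells, namely H19, Dlk1, Mest, Plagl1 and Sgce. In MC3T3 cells Plagl1 and Sgce were on and Grb10 stood at the level itself, with 1 array on each side of it. In NIH3T3 cells 3 genes were on, Dlk1, Plagl1 and Grb10. Only Plagl1 was on in all 4 groups, and Peg3, Ndn, Cdkn1c and Zim1 were below 100 on every array. H19 and Mest were on in the OP9 groups and in neither other line, whereas Grb10 was far above 100 only in NIH3T3 cells. The plot of the 10 genes by array shows that the arrays of a group lay close together for the genes that were on. Dlk1 and Plagl1 were measured by probe sets that can bind related transcripts, and without such probe sets 3 genes were on in each OP9 group, 1 in MC3T3 and 1 in NIH3T3 cells.

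**Figure D1:**
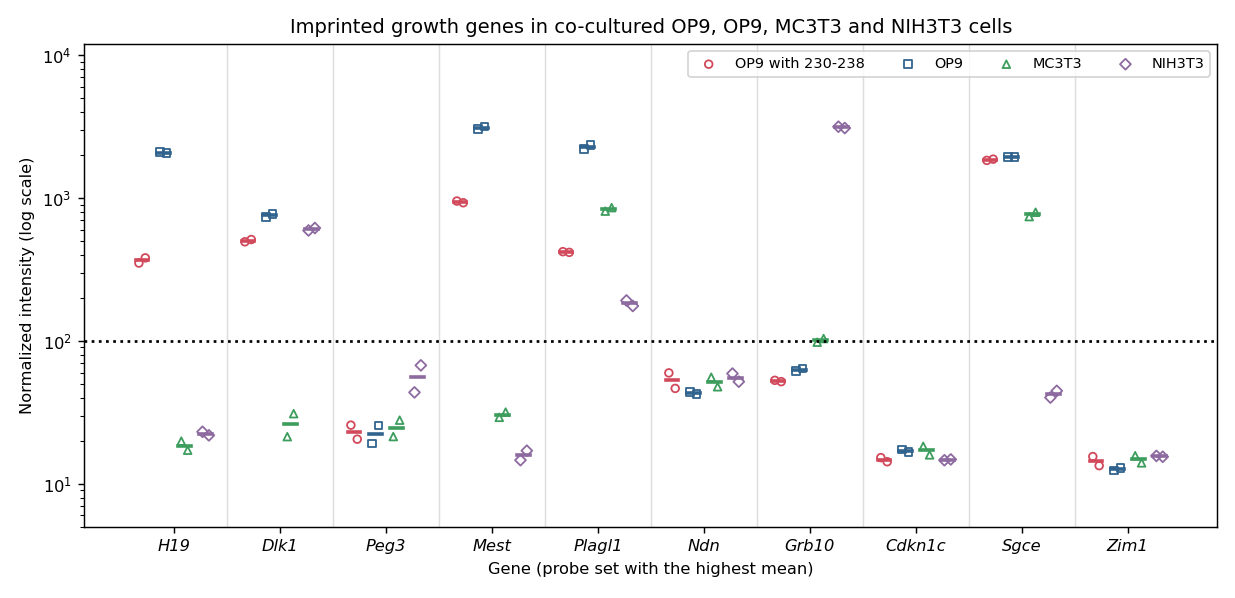
Normalized intensity (vertical axis, log scale) of the 10 genes on each of the 8 arrays. Each point is 1 array, each bar the mean of the 2 arrays of a group, and the dotted line the level of 100. H19 and Mest are above the line only in the OP9 groups, Grb10 is far above it only in NIH3T3 cells, and Peg3, Ndn, Cdkn1c and Zim1 are below it on all arrays.

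H19 is a long noncoding RNA made from the maternal copy, next to Igf2, which encodes an insulin-like growth factor and is made from the paternal copy. The mature sequences of the microRNAs inside H19 are shown because its only probe set is annotated with both H19 and Mir675, and the signals of host and precursor cannot be told apart there. The sequences are from RefSeq on the minus strand of mouse build GRCm38.p6, at chr7:142577112-142577133 and chr7:142577078-142577099, with the seed, bases 2 to 8, in capitals.
mmu-miR-675-5p: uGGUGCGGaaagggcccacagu
mmu-miR-675-3p: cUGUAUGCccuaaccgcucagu

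The H19 probe set read 351 and 382 in co-cultured OP9 cells, 2104 and 2065 in OP9 cells, 19.9 and 17.2 in MC3T3 cells and 23.1 and 21.8 in NIH3T3 cells. OP9 arrays were the highest, co-cultured OP9 arrays lay well below them, and both other lines were near the bottom of the scale, with no overlap between the OP9 groups or with the other lines. MC3T3 minus NIH3T3 was -0.28 as a log2 difference (adjusted p = 0.0223), at values near the bottom of the scale in both lines. The neighbour of H19, Igf2, read 168 and 205 in co-cultured OP9 cells, 371 and 436 in OP9 cells, 65.6 and 58.2 in MC3T3 cells and 101 and 94.3 in NIH3T3 cells. The order of the 2 OP9 groups and of OP9 against each other line was that of H19. Igf2 was lower in co-culture than in OP9 cells (log2 difference -1.11, adjusted p = 0.000386), but it was at 1.96-fold when co-culture replicate 1 was left out and at 1.996-fold when OP9 replicate 2 was, both short of the 2-fold minimum.

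Mest, the mesoderm-specific transcript, is a paternally expressed gene whose product resembles hydrolases and is tied in mice to the enlargement of fat cells. It read 954 and 928 in co-cultured OP9 cells, 3038 and 3169 in OP9 cells, 29.2 and 31.8 in MC3T3 cells and 14.6 and 17.1 in NIH3T3 cells. The 4 groups did not overlap, and in the lines other than OP9 the probe set was near the bottom of the scale. MC3T3 values were 1.93-fold above NIH3T3 values (log2 difference 0.95, adjusted p = 3.93e-05), just under the 2-fold minimum. This difference passed it under median scaling (1.03), under quantile normalization (1.04) and without NIH3T3 replicate 2 (1.06) or MC3T3 replicate 1 (1.01), and it shrank to 0.55 with a pseudocount of 16. Copg2, a coat protein gene that neighbours Mest, was on in all groups at 754 ± 25.3 in co-cultured OP9, 703 ± 28.2 in OP9, 474 ± 21.1 in MC3T3 and 454 ± 65.0 in NIH3T3 cells (SD, n = 2 each), and was called in no comparison. The microRNA inside Mest on the plus strand of chromosome 6, at chr6:30741314-30741336 and chr6:30741354-30741375, is given from RefSeq because it shares the host transcript, with the seed in capitals, and mature microRNAs were not measured.
mmu-miR-335-5p: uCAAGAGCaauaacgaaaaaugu
mmu-miR-335-3p: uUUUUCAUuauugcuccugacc

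Plagl1, also known as Zac1, is a paternally expressed zinc finger factor that can stop the cell cycle and that binds other imprinted genes in mouse cells. It read 422 and 417 in co-cultured OP9 cells, 2209 and 2344 in OP9 cells, 811 and 858 in MC3T3 cells and 192 and 176 in NIH3T3 cells. All 4 groups were on and separate, in the order OP9, MC3T3, co-cultured OP9 and NIH3T3. In a comparison added after seeing the data, co-cultured OP9 differed from MC3T3 cells by -0.99 on the log2 scale (adjusted p = 1.27e-05). A second probe set of Plagl1 had the same order of its group means at lower intensity, with 16.3 and 18.7 in co-cultured OP9, 78.7 and 62.2 in OP9, 35.9 and 22.4 in MC3T3 and 13.4 and 15.3 in NIH3T3 cells. The last of its probe sets varied only between 26.2 and 35.5 over the 8 arrays. The probe set with the highest mean carries the suffix _x_at, which marks probes that can match other transcripts.

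Dlk1, known as preadipocyte factor 1, is a paternally expressed membrane protein of the Delta family that holds back the formation of fat cells. It read 495 and 513 in co-cultured OP9 cells, 740.0 and 776 in OP9 cells, 21.4 and 31.0 in MC3T3 cells and 594 and 617 in NIH3T3 cells. Dlk1 was thus high in 3 groups and near the bottom of the scale in MC3T3 cells. No Dlk1 arrays overlapped between groups, but the differences of both OP9 groups from NIH3T3 cells did not pass the test. OP9 exceeded NIH3T3 cells by 0.32 on the log2 scale (95% interval -0.03 to 0.68, adjusted p = 0.0862). Co-cultured OP9 differed from NIH3T3 cells by -0.27 (95% interval -0.62 to 0.09, adjusted p = 0.149), whereas it exceeded MC3T3 cells by 4.29 (adjusted p = 1.95e-07). The comparisons of co-cultured OP9 with these lines were added after seeing the data. With the mean of all probe sets the sign of the difference between OP9 and NIH3T3 cells turned, to -0.089. Its second probe set stayed between 16.1 and 30.3 on all 8 arrays. Meg3, the maternally expressed noncoding RNA next to Dlk1, read 168 and 113 in co-cultured OP9, 113 and 94.9 in OP9, 134 and 118 in MC3T3 and 186 and 149 in NIH3T3 cells. The Meg3 arrays of co-cultured OP9 cells overlapped those of each other group and Meg3 was called in no comparison, and its MC3T3 level was not low where that of Dlk1 was.

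Sgce encodes epsilon-sarcoglycan, a membrane protein of the dystrophin complex, and is paternally expressed from a shared start region with Peg10, a gene derived from a retrotransposon. It read 1838 and 1874 in co-cultured OP9 cells, 1935 and 1943 in OP9 cells, 742 and 796 in MC3T3 cells and 40.1 and 44.8 in NIH3T3 cells. Both OP9 groups were highest and differed by only -0.06 on the log2 scale (95% interval -0.25 to 0.12, adjusted p = 0.546). MC3T3 cells were intermediate and NIH3T3 cells below 100. Peg10 was between 13.5 ± 0.210 in MC3T3 and 15.0 ± 0.923 in NIH3T3 cells (SD, n = 2 each) as group means and was not on in any group. Pon3 and Pon2, paraoxonases of the same cluster that hydrolyse lactones, had the pattern of high levels except in NIH3T3 cells. Pon3 read 1134 and 1149.9 in co-cultured OP9, 980.5 and 1008 in OP9, 617 and 581 in MC3T3 and 24.4 and 13.5 in NIH3T3 cells. Pon2 read 566 and 595 in co-cultured OP9, 697 and 753 in OP9, 557 and 521 in MC3T3 and 43.6 and 60.2 in NIH3T3 cells. Sgce, Pon2 and Pon3 were therefore all on in 3 groups and below 100 in NIH3T3 cells.

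Grb10 encodes an adaptor protein that binds and restrains the insulin and insulin-like growth factor receptors, and it is maternally expressed in most mouse tissues and paternally in neurons. It read 53.0 and 51.9 in co-cultured OP9 cells, 61.6 and 64.3 in OP9 cells, 98.0 and 104 in MC3T3 cells and 3163 and 3094 in NIH3T3 cells. NIH3T3 arrays stood far above all others, and the remaining 6 arrays lay between 51.9 and 104. Its other probe sets had NIH3T3 highest as well, one with 19.3 to 28.4 in the other groups, against 166 and 233 in NIH3T3 cells, and one with 19.03 to 25.1 in the other groups, against 90.4 and 113 in NIH3T3 cells.

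The remaining genes were measured near the bottom of the scale and were not tested. Peg3, a paternally expressed zinc finger gene known for its role in maternal behaviour and fetal growth in mice, had 5 probe sets. Its highest one read 25.7 and 20.5 in co-cultured OP9, 19.1 and 25.6 in OP9, 21.4 and 27.9 in MC3T3 and 43.6 and 67.5 in NIH3T3 cells. The NIH3T3 arrays were the highest ones there, and also on a second, with 12.1 to 15.2 in the other groups, against 24.8 and 24.1 in NIH3T3 cells, and on another, with 10.3 to 11.3 in the other groups, against 16.1 and 45.5 in NIH3T3 cells, but none reached 100. Zim1, a maternally expressed zinc finger gene next to Peg3, had 1 probe set at 12.4 to 15.7 over all arrays, and Usp29, a ubiquitin protease gene on the other side of Peg3, had group means of 15.5 to 17.9. Ndn encodes necdin, a paternally expressed protein of the MAGE family that restrains growth of neurons and fat cell precursors in mice. Its 8 probe sets were all below 100, and the highest of them read 59.8 and 46.5 in co-cultured OP9, 43.8 and 42.5 in OP9, 55.7 and 47.8 in MC3T3 and 59.1 and 51.8 in NIH3T3 cells. On that probe set the OP9 arrays lay below all others and the other groups overlapped, while another of its probe sets read 16.8 and 22.1 in MC3T3 cells and 8.74 to 10.7 in the other groups. Cdkn1c, a maternally expressed inhibitor of cyclin-dependent kinases, had 1 probe set at 14.3 to 18.3 over all arrays. Snrpn, which lies in the cluster of Ndn, had group means of 43.2 to 71.9 on the probe set that carried its symbol alone, and Phlda2, a maternally expressed placental growth regulator in the cluster of Cdkn1c, had group means of 36.7 to 58.3.

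**Figure D2:**
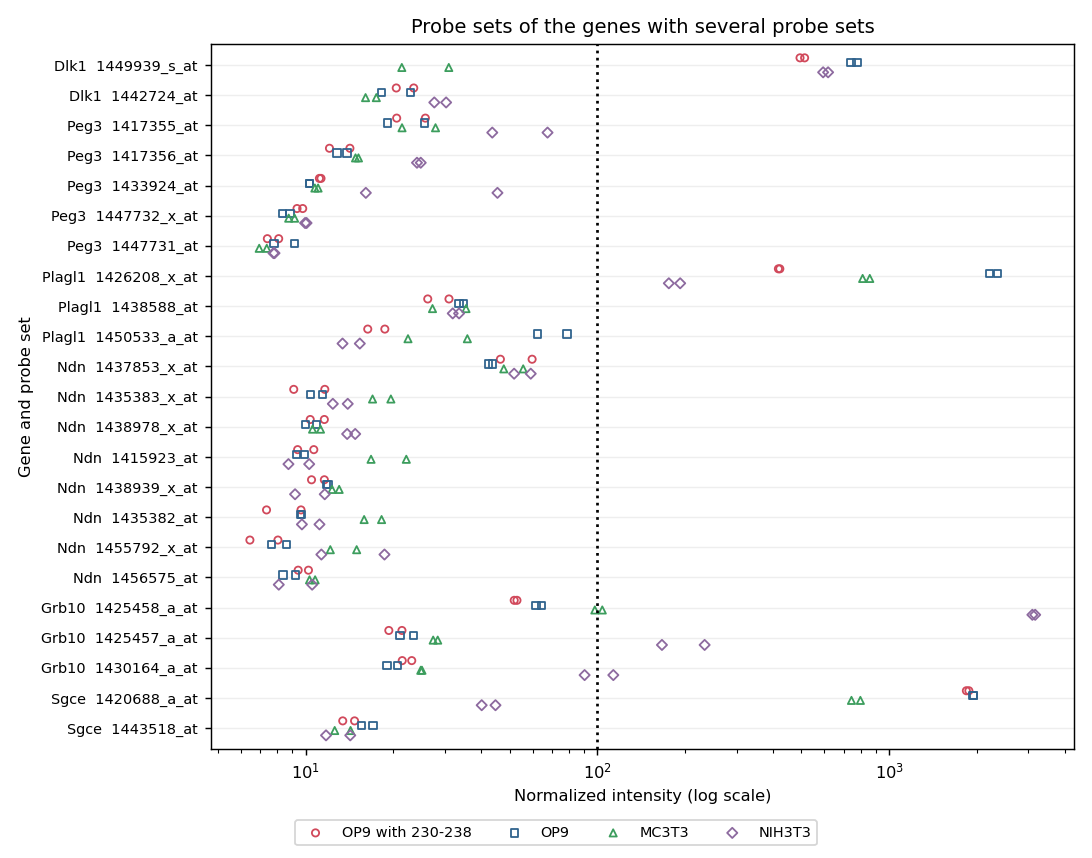
Normalized intensity (horizontal axis, log scale) of every probe set of the genes that have more than 1. Each point is 1 array and the dotted line is the level of 100. Within Dlk1, Plagl1, Grb10 and Sgce the probe sets lie far apart, with 1 probe set of each carrying most of the signal, and no probe set of Peg3 or Ndn reaches the line.

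In OP9 with 230-238, the co-culture, H19, Plagl1 and Mest were lower than in OP9 cells alone. H19 fell by 2.51 on the log2 scale (SE 0.0902, 5.69-fold, adjusted p = 2.33e-06), Plagl1 by 2.44 (SE 0.0758, 5.43-fold, adjusted p = 1.19e-06) and Mest by 1.72 (SE 0.0911, 3.30-fold, adjusted p = 1.14e-05). A gene was called here when its adjusted p over the 10085 genes tested with limma was below 0.05 and its difference at least 2-fold. Of the 6 members tested 3 were called, all lower, and 5.68% of all genes tested were called in this comparison, 2.97% lower. Dlk1 differed by -0.59 (1.50-fold, adjusted p = 0.0178), short of the 2-fold minimum, and its adjusted p reached 0.0935 when OP9 replicate 2 was left out. Grb10 was below 100 in both groups and had passed the filter on low values through its NIH3T3 arrays. It differed by -0.26 (1.20-fold, adjusted p = 0.0168), and its adjusted p was 0.0566 to 0.108 without any 1 array of these groups and 0.559 with the mean of all probe sets. Sgce, described above, did not pass. H19, Plagl1 and Mest remained on in co-culture, so each of them was lower but not below 100.

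Fat cell markers were lower in co-culture as well. Of 5 markers, Pparg, Adipoq, Fabp4, Lpl and Cebpa, 4 were called lower in co-culture, where 2.97% of all genes tested were called lower. The summed level of the list was 11750 to 11860 in co-cultured OP9 cells and 34450 to 34480 in OP9 cells. Adipoq, which encodes the fat cell hormone adiponectin, read 358 and 337 in co-cultured OP9 cells, against 10697 and 10639 in OP9 cells. Pparg, the nuclear receptor that drives fat cell formation, was at 733 ± 37.6 in co-cultured OP9 and 1341 ± 25.3 in OP9 cells (SD, n = 2 each) and was 1.83-fold lower, so it was the marker that missed the 2-fold minimum. The part of fat cell content in the lower H19, Plagl1 and Mest was not tested, and in such bulk samples fewer cells of a type cannot be told apart from less RNA per cell. Of the 5 osteoblast markers with a named probe set only Phex and Dmp1 were tested. Both were called lower in co-culture, against 2.97% of all genes tested. Phex read 46.7 and 43.8 in co-cultured OP9, against 131 and 117 in OP9 cells. Dmp1 read 17.7 and 19.2 in co-cultured OP9, against 58.3 and 61.9 in OP9 cells. Dmp1 was below 100 in both groups and had passed the filter on low values through its MC3T3 arrays. The summed level of the 5 osteoblast markers was 179.5 to 181.7 in co-cultured OP9 and 318.3 to 321.8 in OP9 cells. Their part was not tested either. Of the 9 pre-B cell markers with a named probe set only Ebf1 was on in either OP9 group, at 1267 and 1531 in co-cultured OP9, against 2146 and 1922 in OP9 cells. The summed level of the 9 was 1626 to 1883 in co-cultured OP9 and 2145 to 2361 in OP9 cells. That of the 8 without Ebf1 was 352 to 358.7 in co-cultured OP9 and 215.1 to 222.6 in OP9 cells, with a higher mean in co-culture for 8 of 8. The same sum was 251.7 to 270.9 in MC3T3 and 439 to 470.3 in NIH3T3 cells, which were given no pre-B cells. Over all genes without the filter on low values, the median log2 difference in co-culture was 0.027. Vpreb1 read 77.7 and 76.0 in co-cultured OP9, against 25.8 and 21.6 in OP9 cells, and Ptprc 34.6 and 31.1 in co-cultured OP9, against 8.93 and 8.58 in OP9 cells. Cd79a was at 44.7 ± 9.43 in co-cultured OP9 and 33.9 ± 0.152 in OP9 cells (SD, n = 2 each). The part of remaining pre-B cells in these differences was not tested.

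Between OP9 and MC3T3 cells, 5 of the 6 members tested were higher in OP9 and none was lower. Of all genes tested 20.0% were called in this comparison, 10.5% higher and 9.41% lower in OP9. H19 and Mest had passed the filter on low values through the OP9 groups alone, so their part in this count is not independent of the filter. H19 was 113-fold higher in OP9 (log2 difference 6.82, SE 0.0902, adjusted p = 4e-09) and Mest 102-fold (6.67, SE 0.0911, adjusted p = 4.09e-09). Dlk1 was 29.5-fold higher (4.88, SE 0.154, adjusted p = 1.23e-07). For these genes the MC3T3 level was near the bottom of the scale, and the size of such a fold depends on the background. Plagl1 and Sgce, which were on in both lines, were 2.73-fold (adjusted p = 1.8e-06) and 2.52-fold (adjusted p = 3.23e-06) higher in OP9 cells. Both fell short of the 2-fold minimum with the mean of all probe sets, at log2 differences of 0.96 for Plagl1 and 0.81 for Sgce. Grb10, below 100 in OP9 cells and near it in MC3T3 cells, differed by -0.68 (1.60-fold, adjusted p = 6.2e-05) and missed the minimum. The fat cell markers also differed between the lines, with a summed level of 34450 to 34480 in OP9, 98.19 to 103.5 in MC3T3 and 4730 to 4979 in NIH3T3 cells. The NIH3T3 sum was mostly Lpl, at 4342 and 4583, and of the other markers only Pparg was on in that line. All 5 fat cell markers were called higher in OP9 than in each other line. Of all genes tested, 10.5% were called higher in OP9 than in MC3T3 and 20.6% higher than in NIH3T3 cells. The part of the fat cell markers in the differences between lines was not tested. The OP9 arrays are the same ones that served as the control of the co-culture.

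Between OP9 and NIH3T3 cells, 4 of the 6 members tested were higher in OP9, 1 was lower, and 30.8% of all genes tested were called. Mest was 196-fold higher in OP9 (log2 difference 7.62, SE 0.0911, adjusted p = 1.33e-09), H19 92.8-fold (6.54, SE 0.0902, adjusted p = 2.14e-09) and Sgce 45.7-fold (5.52, SE 0.0780, adjusted p = 2.17e-09), all against NIH3T3 values below 100. Plagl1, on in both lines, was 12.4-fold higher in OP9 (3.63, adjusted p = 9.96e-09). Grb10 was 49.7-fold lower in OP9 (adjusted p = 1.33e-09). Dlk1 was the member that did not pass.

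Between MC3T3 and NIH3T3 cells, 2 of the 6 members were higher in MC3T3 and 2 lower, and 27.4% of all genes tested were called. Sgce was 18.1-fold (log2 difference 4.18, adjusted p = 8.55e-09) and Plagl1 4.54-fold higher in MC3T3 (2.18, adjusted p = 1.71e-07). Grb10 was 31.0-fold lower (-4.95, adjusted p = 2.84e-09) and Dlk1 23.5-fold lower in MC3T3 cells (-4.56, adjusted p = 1.48e-07). H19 and Mest, below 100 in both lines, were not called. Of the other members, Sgce was on in MC3T3 and not in NIH3T3 cells, and Dlk1 was on in NIH3T3 and not in MC3T3 cells.

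**Figure D3:**
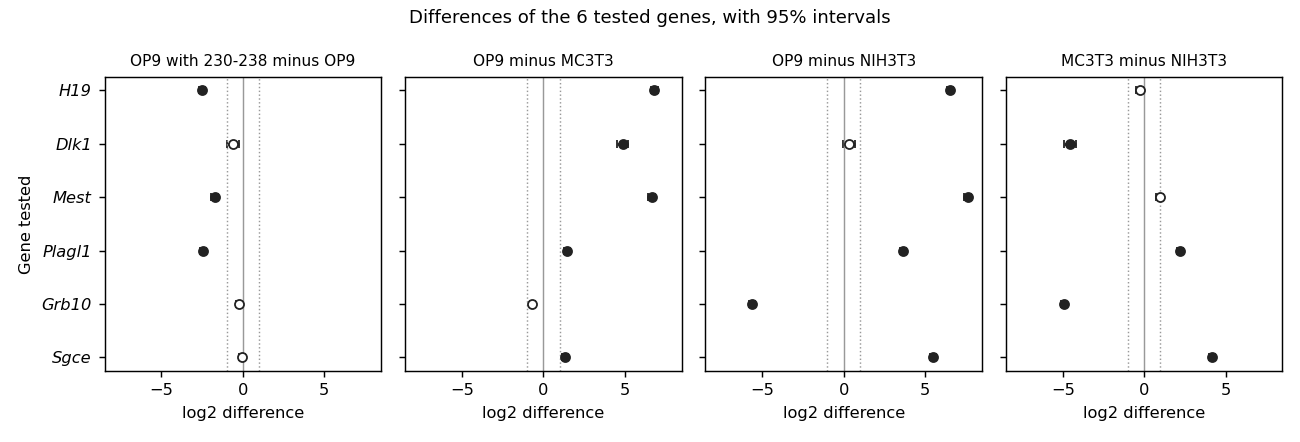
Differences of the 6 tested genes on the log2 scale (horizontal axis) in the 4 comparisons, with 95% intervals. Filled points were called, open points were not, the solid line is no difference and the dotted lines mark 2-fold. H19, Mest and Plagl1 lie to the left in co-culture and to the right for OP9 against both other lines, and Grb10 lies far to the left wherever NIH3T3 is subtracted.

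A wider list of 58 other imprinted genes held 49 with a named probe set, of which 27 passed the filter on low values. Genes of this list on in a group numbered 23 in co-cultured OP9, 22 in OP9, 23 in MC3T3 and 21 in NIH3T3 cells, so the groups differed little in number. In co-culture 1 gene of the list was higher and 1 lower of the 27, where 5.68% of all genes tested were called, with a median log2 difference of -0.05, equal to that of all genes tested at this precision. Igf2, described above, was the lower one. Dcn encodes decorin, a matrix proteoglycan that is imprinted in mouse placenta, and it read 156 and 187 in co-cultured OP9, against 51.2 and 48.9 in OP9 cells (log2 difference 1.77, adjusted p = 1.22e-05). No array of Dcn in co-culture overlapped those of OP9 cells.

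In OP9 against MC3T3 cells 3 genes of the 27 were higher and 4 lower, where 20.0% of all genes tested were called, and the median log2 difference was 0.16, against 0.03 for all genes. In OP9 against NIH3T3 cells 7 were higher and 5 lower, where 30.8% of all genes tested were called, with a median of 0.30, against 0.16. In MC3T3 against NIH3T3 cells 7 were higher and 4 lower, where 27.4% of all genes tested were called, with a median of -0.12, against 0.12. Dcn was highest in MC3T3 cells, at 1072 and 1125, against 45.5 and 43.7 in NIH3T3 cells. Slc38a4, a paternally expressed amino acid transporter, read 132 and 132 in co-cultured OP9, 251 and 217 in OP9, 15.1 and 11.5 in MC3T3 and 166 and 186 in NIH3T3 cells. Slc38a4 thus shared with Dlk1 the low value in MC3T3 cells and on levels elsewhere. Qpct, which encodes glutaminyl cyclase, was on only in MC3T3 cells, at 128 and 129, and its other arrays lay between 9.45 and 14.0. The receptor Igf2r, which takes up and removes the IGF2 protein, was on in all groups, at 887 ± 20.9 in co-cultured OP9, 759 ± 6.91 in OP9, 1735 ± 28.4 in MC3T3 and 1891 ± 155 in NIH3T3 cells (SD, n = 2 each). Its OP9 level was 2.29-fold below MC3T3 (adjusted p = 5.25e-06) and 2.49-fold below NIH3T3 cells (adjusted p = 2e-06). Kcnq1ot1, the noncoding RNA of the cluster of Cdkn1c, read 77.1 and 75.4 in co-cultured OP9, 118 and 108 in OP9, 154 and 127 in MC3T3 and 445 and 343 in NIH3T3 cells, and it was called lower in OP9 and in MC3T3 than in NIH3T3 cells. Gnas, which encodes a G protein subunit, was at 7223 to 8916 as group means and differed by less than 2-fold in every comparison.

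**Figure D4:**
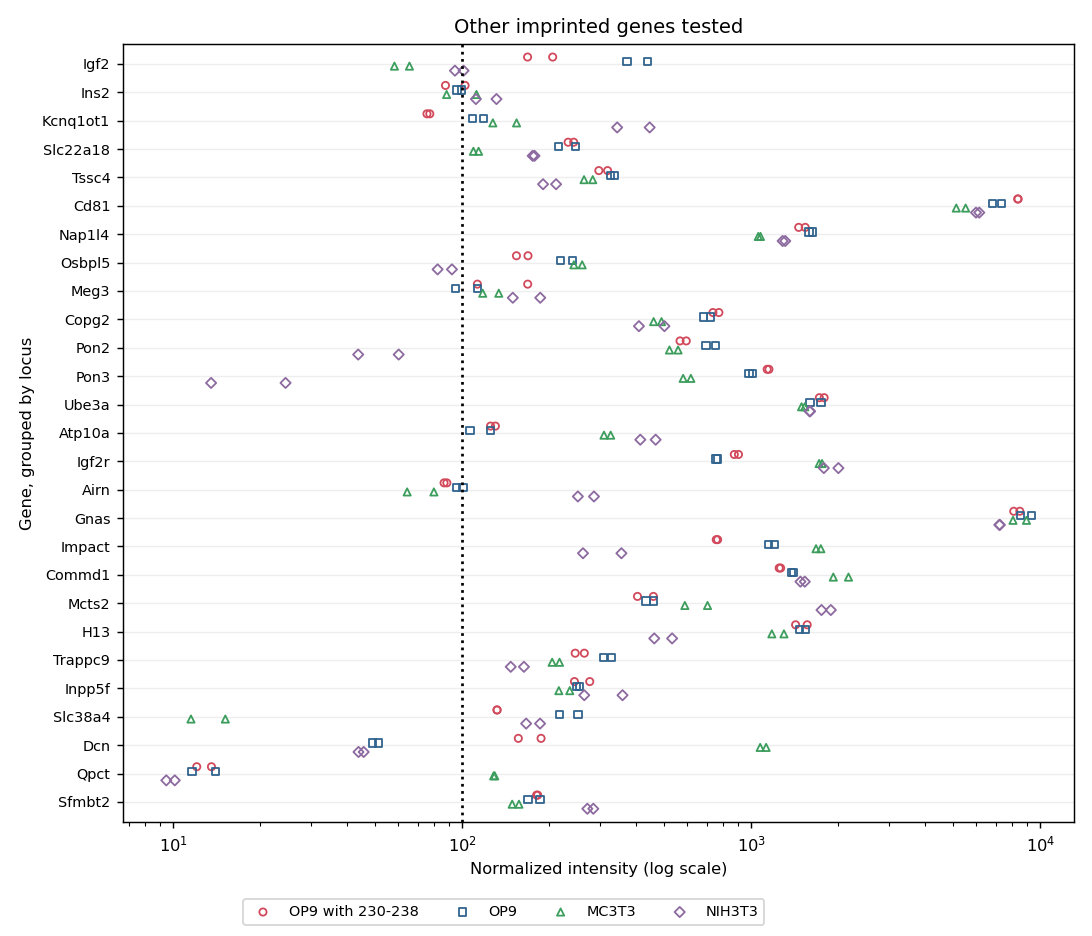
Normalized intensity (horizontal axis, log scale) of the 27 imprinted genes outside the set of 10 that passed the filter, on each of the 8 arrays, with the level of 100 as a dotted line. Pon2 and Pon3 are low only in NIH3T3 cells, Slc38a4 only in MC3T3 cells, and Dcn and Qpct are highest in MC3T3 cells.

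Genes that act with the members were read from lists around each of them. Of all genes tested 5.68% were called in co-culture, the share to set beside the co-culture counts of these short lists. Around Grb10 and Igf2, 1 of 9 tested insulin and IGF genes was called in co-culture, where Igf1, the other insulin-like growth factor, read 1373 and 1259, against 3627 and 3623 in OP9 cells (log2 difference -1.46, adjusted p = 0.000195). In NIH3T3 cells, where Grb10 was high, Igf1 read 24.5 and 18.9. The receptor Igf1r read 409 and 370.1 in OP9 cells, against 1652 and 1371 in NIH3T3 cells (OP9 minus NIH3T3 -1.95, adjusted p = 1.89e-06). Around Dlk1, none of the 4 tested Notch and DLK genes was called in co-culture. Notch1 was called lower in OP9 than in MC3T3 cells (-1.19, adjusted p = 0.00141), the line in which Dlk1 was near the bottom of the scale, and Notch3 was called higher in OP9 (1.76, adjusted p = 2.83e-06). Around Cdkn1c, the related inhibitor Cdkn1a was on in all groups, with means of 4300.4 to 4853, and it was called in no comparison. None of the 11 kinases, cyclins and inhibitors was called in co-culture, whereas 5 were lower in OP9 than in MC3T3 cells and none higher. The 5 were Ccne2 (-3.39), Ccna2 (-2.44), Ccnd1 (-1.75), Ccnd3 (-1.59) and Cdk6 (-1.47). Ccne2 had passed the filter on low values through its MC3T3 arrays alone. Of all genes tested 9.41% were called lower and 10.5% higher in OP9 than in MC3T3 cells. Against NIH3T3 cells, 2 were higher in OP9, Cdk2 (2.56) and Ccnd2 (1.33), and 1 was lower, Cdk6 (-3.49), where 20.6% of all genes tested were called higher and 10.3% lower.

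Around Sgce, none of the 4 tested genes of the sarcoglycan and dystroglycan complex was called in co-culture or between OP9 and MC3T3 cells. Of all genes tested 5.68% and 20.0% were called in these comparisons. Against NIH3T3 cells 1 of the 4 was called higher in OP9 and 1 lower, where 30.8% of all genes tested were called. Sspn, which encodes sarcospan of the same complex, had 1128 ± 34.6 in OP9 cells, against 288 ± 24.3 in NIH3T3 cells (SD, n = 2 each). It was higher in OP9 (1.97, adjusted p = 2.74e-07), in the direction of Sgce. Utrn was lower in OP9 (-1.22, adjusted p = 1.25e-06), in the other direction. Around Ndn, the MAGE genes Maged1 and Maged2 were on in all groups, while necdin was not. Around Plagl1, its relative Plag1 was below the filter and Plagl2 was called neither in co-culture nor between OP9 and either other line. Plagl2 was called higher in MC3T3 than in NIH3T3 cells (1.07, adjusted p = 0.000615). Of 9 tested genes that maintain imprints or DNA methylation, none was called in co-culture, 2 were lower in OP9 than in MC3T3 cells, and against NIH3T3 cells OP9 had 1 higher and 1 lower, where 5.68%, 20.0% and 30.8% of all genes tested were called in these comparisons. The largest of these differences was that of Uhrf1, which guides maintenance methylation during replication, at 261 and 248 in OP9, against 1847 and 1899.5 in MC3T3 cells (-2.88, adjusted p = 5.48e-08). Ctcf is the factor that binds the control region of H19 and Igf2 on the maternal copy. It had 494 ± 1.14 in co-cultured OP9, 621 ± 30.8 in OP9, 669 ± 16.4 in MC3T3 and 287 ± 17.3 in NIH3T3 cells (SD, n = 2 each). In MC3T3 cells, where H19 was near the bottom of the scale, Ctcf was thus not low. In NIH3T3 cells, where H19 was near the bottom too, Ctcf stood 2.16-fold under its OP9 level (adjusted p = 4.48e-06). In co-culture, where H19 fell, Ctcf had a log2 difference of -0.33 from OP9 and was not called. The part of Ctcf in the levels of H19 was not tested.

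The genes most like each tested member were taken as the 2 other genes at the smallest root mean square distance between their 4 group means, each centred on its own mean, on the log2 scale. Those nearest to H19 were Il1rn at 0.39 and Plce1 at 0.50, and those nearest to Mest were Rbp4 at 0.38, which encodes a carrier of retinol, and Ppp1r3c at 0.43, which encodes a glycogen-targeting phosphatase subunit. Il1rn had group means of 634 in co-cultured OP9, 2432 in OP9, 44.5 in MC3T3 and 46.4 in NIH3T3 cells, and Rbp4 had 914 in co-cultured OP9, 2869 in OP9, 16.1 in MC3T3 and 16.7 in NIH3T3 cells. Dlk1 was nearest to Rbpms at 0.11 and to Plin4, a lipid droplet protein of fat cells, at 0.19. Sgce was nearest to Egr3 at 0.11 and Edil3 at 0.15, Plagl1 to Fgfbp3 at 0.33 and Egr2 at 0.36, and Grb10 to Slurp1 at 0.24 and Peli2 at 0.26. These distances are over 4 groups of 2 arrays and describe those groups only.

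Promoter windows of 300 bases that run past the start site were found in RefSeq for 7 of the 10 genes and not for H19, Cdkn1c and Sgce. CG pairs, the sites of DNA methylation in mammals, are in capitals in the windows below, which belong to the members that were called in a comparison and had a window. A Mest window shifted by 3 bases from the second one and a further Grb10 window with 9 CG pairs are not shown. They are from build GRCm38.p6, at chr6:30733256-30733555 and chr6:30737800-30738099 on the plus strand for Mest, chr10:13090582-13090881 on the plus strand for Plagl1, chr12:109452573-109452872 on the plus strand for Dlk1 and chr11:12037371-12037670 on the minus strand for Grb10.
Mest, first window: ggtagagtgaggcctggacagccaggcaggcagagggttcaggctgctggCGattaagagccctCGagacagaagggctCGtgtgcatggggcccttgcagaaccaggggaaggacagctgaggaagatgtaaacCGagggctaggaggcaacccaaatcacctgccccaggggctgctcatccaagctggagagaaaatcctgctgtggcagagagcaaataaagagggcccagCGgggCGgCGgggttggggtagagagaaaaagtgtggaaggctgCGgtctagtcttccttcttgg
Mest, second window: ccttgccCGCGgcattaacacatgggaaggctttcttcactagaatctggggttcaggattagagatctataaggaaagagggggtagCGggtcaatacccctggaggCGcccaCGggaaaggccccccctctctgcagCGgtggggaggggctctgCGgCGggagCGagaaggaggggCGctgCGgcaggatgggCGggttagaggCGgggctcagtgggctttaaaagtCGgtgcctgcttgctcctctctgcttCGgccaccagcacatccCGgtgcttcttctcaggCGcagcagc
Plagl1: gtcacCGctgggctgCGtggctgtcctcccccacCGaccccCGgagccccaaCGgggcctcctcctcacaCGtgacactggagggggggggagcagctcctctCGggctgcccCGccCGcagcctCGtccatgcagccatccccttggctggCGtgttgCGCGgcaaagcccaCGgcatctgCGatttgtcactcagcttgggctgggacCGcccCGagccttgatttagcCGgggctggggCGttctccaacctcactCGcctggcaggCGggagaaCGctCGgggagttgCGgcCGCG
Dlk1: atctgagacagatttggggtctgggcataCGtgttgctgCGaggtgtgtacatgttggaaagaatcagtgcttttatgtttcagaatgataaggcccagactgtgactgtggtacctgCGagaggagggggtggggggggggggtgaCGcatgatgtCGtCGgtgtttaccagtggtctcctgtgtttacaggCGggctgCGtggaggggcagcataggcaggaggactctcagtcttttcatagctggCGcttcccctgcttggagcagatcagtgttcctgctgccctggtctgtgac
Grb10: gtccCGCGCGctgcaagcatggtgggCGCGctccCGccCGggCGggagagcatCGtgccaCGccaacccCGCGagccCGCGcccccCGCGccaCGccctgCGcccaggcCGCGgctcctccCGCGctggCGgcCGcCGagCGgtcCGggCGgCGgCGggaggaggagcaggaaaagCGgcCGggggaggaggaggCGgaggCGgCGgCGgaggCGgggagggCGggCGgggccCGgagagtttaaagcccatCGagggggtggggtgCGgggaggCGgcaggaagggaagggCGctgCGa

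The Grb10 window shown held 45 CG pairs, and 1.93% of the 32851 windows of the table held as many or more. The Plagl1 window held 26, a number that 16.9% of windows reached, and the Mest windows held 8 and 17. The Dlk1 window held 9, against a median of 7 over all windows. Searches on both strands for GGGGCCCC, the core bound by PLAGL1, GCCATNTT, bound by YY1, and TATAAA found GGGGCCCC in the window of Peg3 alone among the 7 genes, and the other motifs in none of their windows. Of all windows 1.08% held GGGGCCCC, 6.05% GCCATNTT and 13.6% TATAAA. DNA methylation was not measured in these samples.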

How the data were processed

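RNA of 8 samples was measured on Affymetrix mouse expression arrays, 2 arrays in each of 4 groups taken from the sample titles. The authors deposited 1 normalized intensity per probe set and array on a linear scale. RMA Express, affylmGUI and dChip are named in the methods, without saying which one wrote these values. Probe sets were named through the platform annotation: 34958 had 1 gene symbol, 932 several and 9211 none. Probe sets with several symbols were not used, except the only one of H19, annotated with Mir675 as well. Intensities were log2-transformed without a pseudocount, and a gene was read from the probe set whose mean log2 value was highest. Tests covered the 10085 genes that reached 100 on 2 or more arrays, a filter that a gene can pass through its high group alone.

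Group means were fitted with lmFit and eBayes of limma 3.58.1 in R 4.3.3 on all 8 arrays, with 4 residual degrees of freedom, with Benjamini-Hochberg adjustment over all genes tested. Calls needed both an adjusted p below 0.05 and a 2-fold difference. Co-culture was compared with OP9, OP9 with MC3T3 and with NIH3T3, and MC3T3 with NIH3T3. Comparisons of co-culture with the other lines were added after seeing the data, to order levels. Their adjusted p-values, given for Plagl1 and Dlk1, come from comparisons that were not planned. The number of arrays limits the precision. On simulated data for the co-culture comparison over 10085 genes, 98% of 100 genes changed 2.5-fold and 99% of 100 genes changed 4-fold were called, with 0 false calls. This checked the procedure only, and it could not show how separate cultures vary.

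The members and all lists were chosen with earlier results of these data known. Named were all 10 members, the 6 genes of the wider imprinted list with the largest range among those called, 10 further imprinted or neighbouring genes listed by name (Igf2, Meg3, Peg10, Usp29, Snrpn, Igf2r, Kcnq1ot1, Phlda2, Gnas and Copg2), and the 2 genes nearest to each tested member. Other named genes of the partner and marker lists were chosen after their values were seen. RefSeq tables of GRCm38.p6 gave sequences and neighbours only. Alternatives were other filters, a pseudocount of 16, quantile normalization, median scaling, only the arrays compared, other priors, other uses of the probe sets, other fold criteria, the replicate number as a block and leaving out each array. The design text also mentions primary pre-B cells, and no culture with such cells was analysed here.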

Additional observations from a re-analysis of the deposited data

How the results depend on the processing

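Called members kept their direction under every alternative, and of all member differences only that of Dlk1 between OP9 and NIH3T3 cells, which was not called, turned its sign, to -0.089 with the mean of all probe sets. With that mean, 3 members were called between OP9 and MC3T3 cells and 0 were on in MC3T3 cells, and the wider imprinted list had 0 genes called in co-culture, 6 for OP9 against NIH3T3 and 7 for MC3T3 against NIH3T3 cells. Without _x_at and _s_at probe sets, which removes Dlk1 and Plagl1 from the highest-mean choice, 2 of 4 members tested were called in co-culture, with Plagl1 lost, 3 for OP9 against MC3T3 and 2 for MC3T3 against NIH3T3 cells, and members on numbered 3 in co-cultured OP9, 3 in OP9, 1 in MC3T3 and 1 in NIH3T3 cells. With each probe set on its own, 920 probe sets were called in co-culture, 3418 for OP9 against MC3T3, 5452 for OP9 against NIH3T3 and 4927 for MC3T3 against NIH3T3 cells, against 573, 2012, 3107 and 2767 genes, and those of the wider list numbered 11, 19 and 17 in the comparisons of lines. With no minimum fold these counts of genes became 4315, 6714, 7856 and 7544, those of the wider list 9, 20, 22 and 22, and 5 members were called in co-culture. At 5-fold and an unadjusted p below 0.05 they were 64, 554, 852 and 682 genes, 0, 4, 2 and 6 of the wider list, and 2 members in co-culture, without Mest, and 3 for OP9 against MC3T3 cells. Leaving out 1 array gave 3 members called in co-culture, 5 for OP9 against MC3T3, 5 for OP9 against NIH3T3 and 4 to 5 for MC3T3 against NIH3T3 cells, and 1 to 2 of the wider list in co-culture, 1 of them without co-culture replicate 1 or OP9 replicate 2. The causes of these changes were not tested. Quantile normalization moved the median difference of all genes between OP9 and NIH3T3 cells to 0.01, against 0.16, and that between MC3T3 and NIH3T3 cells to 0.01, against 0.12. Same-numbered arrays deviated together for 1 of 6 pairs of groups at a correlation over 0.1, so the numbers were not taken as pairing, and with the replicate block 573, 2012, 3107 and 2767 genes and 3, 5, 5 and 4 members were called, and it changed no call. Values near the bottom of the scale, as for H19 and Mest outside OP9 cells, limit how precisely their folds are known.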
